A study of Homo sapiens with 46 samples.

Results

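The 40 genes described here encode, in the nucleus, subunits of the respiratory chain complexes II, III and IV, of the ATP synthase (complex V), and cytochrome c, the electron carrier between complexes III and IV. They were taken by gene symbol, as named subunits, from the 58735 genes of a count table. They comprise 4 genes of complex II, 9 of complex III, the cytochrome c gene CYCS, 11 of complex IV and 15 of complex V. The 40 members were all found in the table and all passed the filter on low counts, which kept 20272 genes.

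RNA-seq counts came from 46 libraries of HEK293T cells, a transformed human embryonic kidney line. No engineered mutation is named in the labels, and the study's supplement gives the line as HEK293-Flp-In T-Rex. The cells received a chimera of a mitochondrial targeting peptide (pCox4) with an antisense morpholino against 1 of 11 mtDNA-encoded mRNAs, at 2 µM for 48 h. The 11 treatments are named for their targets: ND1, ND2, ND3, ND4L and ND5 of complex I, CYTB of complex III, COX1, COX2 and COX3 of complex IV, and ATP6 and ATP8 of complex V. Control cells received pCox4 that had been through the coupling reaction with no morpholino, so they lack a morpholino of unrelated sequence. The control and 9 treatments had 4 libraries each, and ND2 and COX2 had 3. By the study's methods the replicates were done in 2 batches, on different days and with different batches of reagents. Batch 1 holds replicates 1 and 2, and batch 2 the rest. Every group comes from a single cell line. All 11 treatments are set against the same 4 control libraries, so a deviation of those libraries enters each of the 11 comparisons in the same direction.

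Oxidative phosphorylation enzymes are built from products of both genomes. In complexes III, IV and V a few mtDNA-encoded subunits form part of the catalytic or proton-conducting core and are joined in the inner membrane by imported, nuclear-encoded subunits, whereas complex II is nuclear-encoded throughout. Many nuclear genes of this class are transcribed from promoters bound by NRF1, by ETS family factors such as GABP, or by YY1, and are co-activated by the PGC-1 family.

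The libraries held between 18876395 and 100698084 counts, with a median of 23413171, and COX3 replicate 4 was the only library above 28121898. Of the listed markers of these cells, KRT8 stood at 388 ± 46.3 (SD, n = 4) and VIM at 429 ± 38.8 CPM in the controls, where CPM is the count scaled to the effective size of the library. KRT18, CDH2 and NEFL stood at 97.7, 104 and 203 CPM in controls. NEFM, also listed, stood at only 0.947 ± 0.0473 CPM. The kidney lineage genes PAX2 and LHX1 were at 7.12 ± 1.26 and 3.02 ± 0.212 CPM. The blood cell marker PTPRC, the T cell marker CD3E and the fibroblast marker COL1A2 did not exceed 0.492, 0.283 and 0.322 CPM in any library. COL1A1, the other collagen gene on the list of other cell markers, stood at 24.9 ± 2.33 CPM in controls and above PAX2 and LHX1. GFAP, also on that list, stood at 1.15 ± 0.298 CPM in controls, above NEFM. PECAM1 and ALB, from the same list, did not exceed 0.736 and 0.533 CPM in any library. MT-CO1, the mRNA targeted in the COX1 treatment, fell there by 1.33 ± 0.07 on the log2 scale (SE; adjusted p = 2.25e-21 by edgeR's quasi-likelihood test with Benjamini-Hochberg adjustment). Of the other targets in complexes III to V, MT-CO3 after COX3 silencing (log2 fold change -0.49, adjusted p = 9.99e-06) and MT-CYB after CYTB silencing (-0.33, adjusted p = 0.00449) passed the same edgeR test, while silencing of COX2, ATP6 and ATP8 gave no called change of the targeted mRNA in these poly(A)-enriched libraries. MT-ATP6 also fell after COX3 silencing (-0.33, adjusted p = 0.000696, edgeR).

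Promoter sequence was available in RefSeq for 32 of the 40 genes (assembly GRCh38.p14), as windows of 300 bases that run from 250 before the transcription start to 50 bases into the first exon. Of the members, SDHC, UQCRB, CYC1, COX6C, ATP5F1B, ATP5F1D, ATP5MC3 and ATP5MF had no entry. The windows were searched on both strands for 5 strings of letters: the NRF1 palindrome and its shorter part GCGCATG, the ETS string CCGGAAG, and a long YY1 string and its shorter part AAGATGG, where each longer string contains the shorter. The ETS string was in 15 of 32 member promoters (46.9%) and in 10.3% of all 35116 promoters of the same length, or 12.2% of the 27305 genes with a promoter. The short NRF1 string was in 9 of 32 (28.1%, against 4.43% of all promoters and 5.3% of genes) and the full palindrome in 2 of 32, SDHD and ATP5F1C (6.25%, against 1.24 and 1.52%). The short YY1 string was in 9 of 32 (28.1%, against 5.84 and 7.11%) and the long string in 2 of 32, SDHB and UQCRC1 (6.25%, against 0.849 and 1.04%). The promoters of ATP5ME, COX4I1, COX6B1 and SDHD are printed because these 4 genes gave the lowest p-values or the outermost values described below, and the windows show how differently placed the strings are among them. Capitals mark the strings found, and the sequences are given 5′ to 3′ on the strand of the gene.
ATP5ME: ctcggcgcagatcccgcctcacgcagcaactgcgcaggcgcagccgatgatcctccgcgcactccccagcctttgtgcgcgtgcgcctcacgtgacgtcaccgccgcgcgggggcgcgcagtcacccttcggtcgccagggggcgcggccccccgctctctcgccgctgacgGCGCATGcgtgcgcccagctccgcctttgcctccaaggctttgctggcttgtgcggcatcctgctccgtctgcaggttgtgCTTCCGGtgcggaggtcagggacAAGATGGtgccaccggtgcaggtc
COX4I1: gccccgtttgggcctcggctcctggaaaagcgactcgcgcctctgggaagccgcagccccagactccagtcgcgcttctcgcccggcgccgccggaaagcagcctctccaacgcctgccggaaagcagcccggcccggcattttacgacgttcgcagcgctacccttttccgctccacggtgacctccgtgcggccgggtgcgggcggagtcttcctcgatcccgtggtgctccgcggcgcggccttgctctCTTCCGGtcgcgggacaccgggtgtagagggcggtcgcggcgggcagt
COX6B1: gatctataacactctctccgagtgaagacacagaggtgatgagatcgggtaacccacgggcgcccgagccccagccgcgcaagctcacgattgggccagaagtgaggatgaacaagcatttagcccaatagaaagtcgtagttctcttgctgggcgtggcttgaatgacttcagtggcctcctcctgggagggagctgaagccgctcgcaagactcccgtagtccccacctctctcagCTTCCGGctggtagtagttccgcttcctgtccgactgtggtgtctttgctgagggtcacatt
SDHD: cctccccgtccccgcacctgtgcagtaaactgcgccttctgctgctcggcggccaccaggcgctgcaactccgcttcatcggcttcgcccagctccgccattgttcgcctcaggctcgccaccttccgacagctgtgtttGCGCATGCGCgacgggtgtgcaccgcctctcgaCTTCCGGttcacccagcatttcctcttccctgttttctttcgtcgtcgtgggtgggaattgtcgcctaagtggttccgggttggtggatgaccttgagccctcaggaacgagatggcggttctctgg

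The ATP5ME window lies at chr4:674227-674526 on the minus strand. It holds the short NRF1 string from 78 bases before the start (-78), the ETS string from position +4 and the short YY1 string from +27. The COX4I1 window at chr16:85799445-85799744 (plus strand) has a single string, for ETS, from +3, and the COX6B1 window at chr19:35648073-35648372 (plus strand) has ETS alone, from -12. The SDHD window at chr11:112086623-112086922 (plus strand) has the full NRF1 palindrome from -110 and the ETS string from -77. A match gives the letters of the window and does not show that a factor is bound there.

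In control cells the members differed widely in level per length. Dividing CPM by an mRNA length of each gene (GENCODE 29, on the build of the files) gave RPKM, a level per kilobase. Its ratio of the highest to the lowest was 70.9. With the gene length column of the table, which joins the exons of all isoforms, the ratio was 60.5. The mRNA taken was the annotated transcript with the longest coding sequence and, among equals, the longest. Which isoform these cells express was not examined, so the order of levels by mRNA length depends on this choice. ATP5F1B, the catalytic beta subunit of the F1 part of the ATP synthase, was highest at 652 ± 45.98 RPKM by mRNA length (516 ± 36.4 by the table's length). SDHC, a membrane anchor of complex II, was lowest by mRNA length at 9.19 ± 0.380 RPKM, since the mRNA taken for it by that rule is 13566 bases long.

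**Figure D1:**
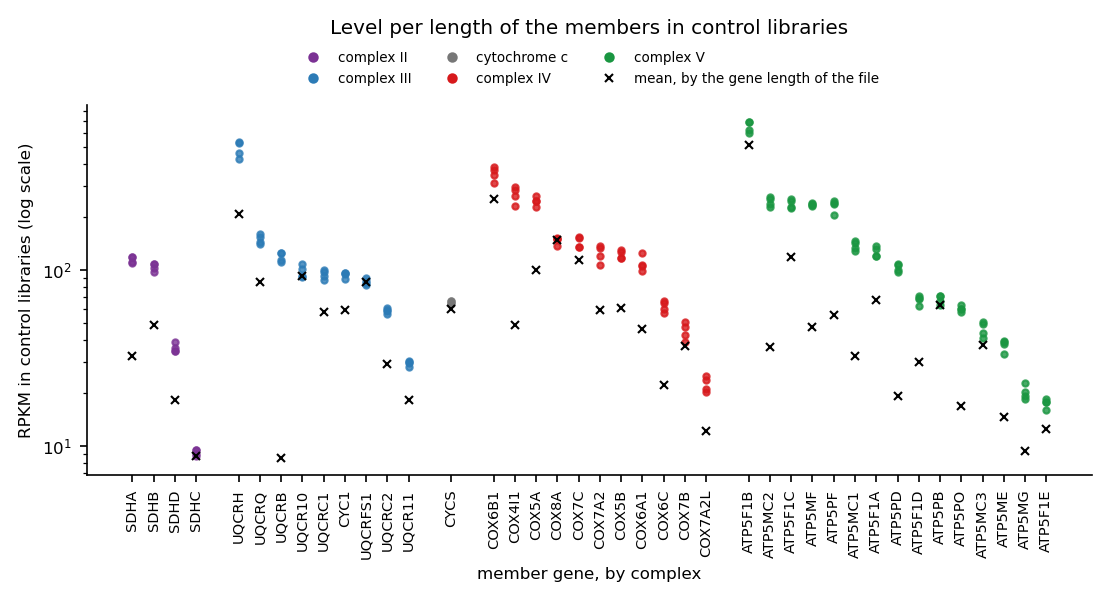
Level per length (RPKM, log axis) of the 40 members in the 4 control libraries, grouped by complex. Coloured points are libraries, by mRNA length, and crosses are the control mean by the gene length of the table; levels run from 9.19 for SDHC to 652 for ATP5F1B by mRNA length, and the crosses of SDHA and UQCRB stand far below their points.

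Within complex II the flavoprotein SDHA, which oxidises succinate, stood at 115 ± 5.05 RPKM by mRNA length, and the iron-sulfur subunit SDHB at 104 ± 5.33. By the table's length SDHB (48.8 RPKM) stood above SDHA (32.7 RPKM), so their order depends on the length used. Within complex III the hinge protein gene UQCRH was highest by either length (488 ± 52.7 and 209 ± 22.6 RPKM). The lowest of complex III was the small subunit gene UQCR11 by mRNA length (29.6 ± 1.06 RPKM) and UQCRB by the table's length (8.54 ± 0.532 RPKM), whose table length of 9715 bases compares with an mRNA of 695. CYCS stood at 65.7 ± 1.05 RPKM by mRNA length.

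Within complex IV COX6B1, a subunit facing the intermembrane space, was highest at 354 ± 32.5 RPKM by mRNA length. COX4I1 (268 ± 27.8 RPKM) and COX5A (246 ± 15.1 RPKM), which join COX1 early in assembly, came next and lay within 1 SD of each other. COX7A2L, a supercomplex factor related to COX7A2, was lowest at 22.5 ± 2.20 RPKM, against 124 ± 13.7 for COX7A2 itself. In complex V the lowest level by mRNA length was that of ATP5F1E, the epsilon subunit of the central stalk (17.6 ± 1.12 RPKM), followed by ATP5MG, subunit g (20.3 ± 1.86 RPKM), which was lowest by the table's length (9.45 ± 0.867 RPKM). The 3 genes for the identical c-ring subunit stood in the order ATP5MC2 (245 ± 14.0), ATP5MC1 (138 ± 7.70) and ATP5MC3 (46.3 ± 4.34 RPKM) by mRNA length. In CPM, which ignores length, the order was reversed for the first and last, with 254 ± 23.8 for ATP5MC3, 146 ± 8.38 for ATP5MC2 and 84.5 ± 4.73 for ATP5MC1.

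The first comparison asked whether mRNAs of these genes differed from control 48 h after silencing of each mtDNA-encoded mRNA. No member passed the edgeR test in any of the 11 comparisons (0 of 440 tests at an adjusted p under 0.05, with adjustment over all 20272 genes in each comparison). At an unadjusted p under 0.05 there were 92 of the 440, of which 89 were above and 3 below control. In the single comparisons 3.31 (ND3) to 14.1% (ND4L) of all genes had such a p, in either direction. DESeq2 with the batch as a term called 5 of the 440 (COX4I1 and COX6B1 after ND1 silencing, CYC1 and ATP5ME after CYTB, and COX4I1 after ND4L, where it called 0.774, 1.68 and 1.47% of all genes), and DESeq2 without the batch called 0. Other choices moved the count: edgeR without a filter on low counts called 35 of the 440 (0.416% of all tests over the 11 comparisons), and edgeR fitted on the libraries of each treatment and control alone called 16 (0.828% of all tests). The fitted log2 fold changes ran from -0.24 (SDHD after ND4L silencing) to 0.55 (ATP5ME after CYTB silencing), and 428 of the 440 intervals at 95% lay within 0.5 of 0 in either direction. The lowest adjusted p of all was 0.0655, for ATP5ME after CYTB silencing (edgeR). In bulk RNA, fewer cells expressing a gene and less RNA per cell cannot be told apart.

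The values of the members in each comparison are given beside those of all genes tested in the same fit. After ND1 silencing the median log2 fold change of the 40 members was 0.16, against -0.0032 over all genes tested, and 39 of 40 lay above 0, as did 49.1% of all genes. At an unadjusted p under 0.05, 27 members were above and 0 below control, while 6.47% of all genes tested were above control at this p and 9.86% of protein-coding genes with at least 10 CPM. With adjustment, edgeR called 0 members and 0.0888% of all genes in this comparison. ATP8 silencing came next, with a median of 0.12 (0.061 without ATP8 replicate 2), 37 of 40 members above 0 (50.6% of all genes) and 17 above control at an unadjusted p under 0.05, where 6.21% of all genes did so and 0.0641% were called.

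COX2 silencing gave a median of 0.10 with 10 members above control at an unadjusted p under 0.05 (7.42% of all genes; 0.469% called), and CYTB silencing 0.083 with 11 members (7.66%; 0.548% called). These are shares of 25.0 and 27.5% of the members. For COX3 the median was 0.078 with 5 members (5.65% of all genes; 0.306% called), for ATP6 0.055 with 6 (5.39%; 0.00987% called), and for COX1 0.044 with 4 (4.58%; 0.0543% called), all of them above control. For ND4L the median was 0.051, with 5 members above and 1 below control at that p (14.1% of all genes in either direction; 0.148% called). ND2 silencing gave 0.052 with 2 members above control (2.34%; 0.0247% called). ND3 silencing gave 0.016 with 0 members (3.31% in either direction; 0.00987% called), and ND5 0.0093 with 4 members, 2 of them below control (9.3% in either direction; 0.158% called). Single libraries weighed on several of these medians. Without replicate 2 of the treatment the median was 0.061 for ATP8, 0.045 for COX2 and 0.015 for ATP6, and it was 0.083 and 0.088 for ATP6 without replicate 1 or 3. Without replicate 1 it was 0.054 for CYTB, 0.045 for COX3 and 0.105 for ND4L, and without replicate 4 it was 0.051 for COX3 and 0.012 for COX1, the latter being 0.019 without control 4. For ND3 it ran from -0.0098 to 0.050 and for ND5 from -0.017 to 0.031 when single libraries were left out, and for ND1 from 0.12 to 0.21. The medians of all genes tested lay within 0.01 of 0 in every comparison.

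**Figure D2:**
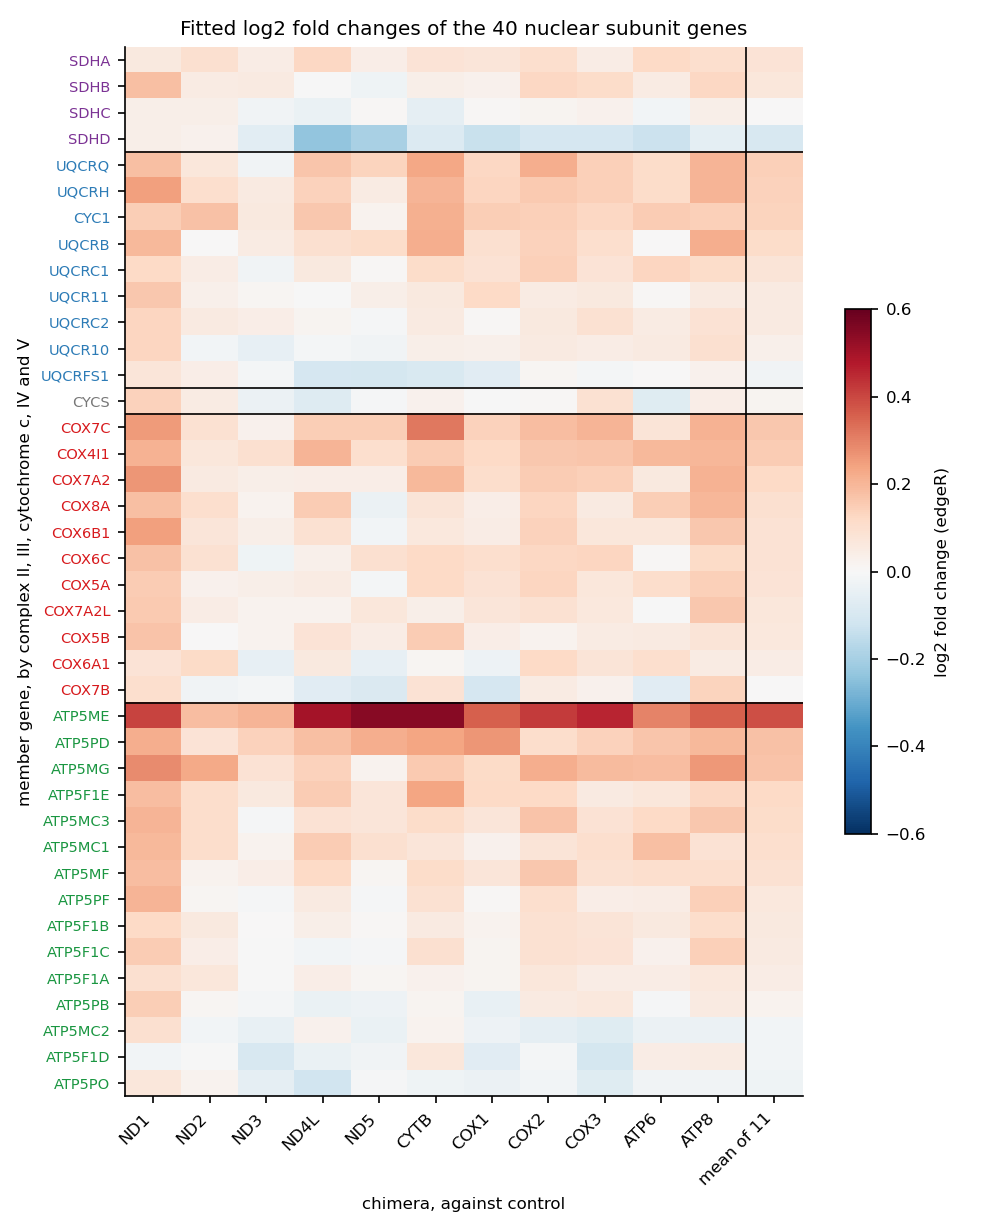
Fitted log2 fold change (edgeR, colour scale) of each of the 40 members, by complex, in the 11 treatments against control and in the mean of the 11. The ND1 column is the most evenly above 0 (39 of 40 members), ATP5ME is the strongest row with 0.55 after CYTB silencing, and SDHD after ND4L silencing is lowest at -0.24; no value passed the test.

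The shift was also read library by library, as the median over the 40 members of the log2 ratio to the mean of the controls of the same batch. After ND1 silencing the 4 libraries stood at 0.06, 0.22, 0.27 and 0.09, with 30, 37, 40 and 32 members above 0. The control libraries themselves differed from their batch partner by 0.04 in either direction in batch 1 and 0.07 in batch 2, where control 3 had 32 members above 0 and control 4 had 8. These measures differ: a treated library was set against the mean of both controls of its batch, and a control against the other control alone. The same deviation therefore gives a larger value for a control than for a treated library. Every ND1 library stood above the control values of its batch, replicates 2 and 3 by more than replicates 1 and 4. ATP8 replicate 2 stood at 0.26, the other 3 at 0.02, 0.05 and 0.14. ND3 libraries stood at 0.03, -0.10, 0.04 and 0.09, and in ND3 replicate 2 only 3 members were above 0. The 3 COX2 libraries gave 0.20, 0.04 and 0.06, so their median rests mainly on the only COX2 library of batch 1.

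**Figure D3:**
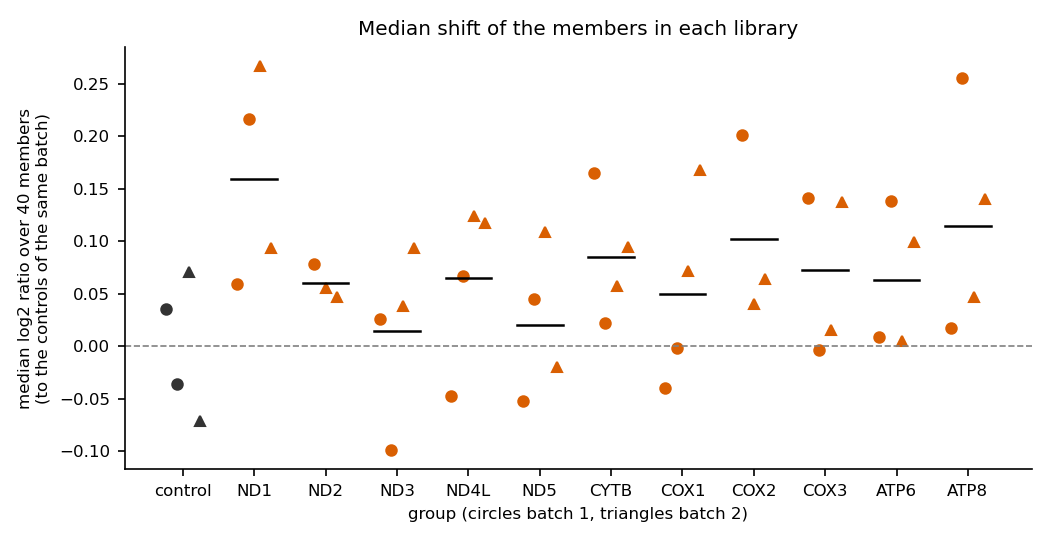
Median over the 40 members of the log2 ratio to the control libraries of the same batch, for each library (circles batch 1, triangles batch 2, bars group means). Treated libraries are set against the mean of both controls, and each control against the other control, which gives controls the wider scale. ND1 libraries stand between 0.06 and 0.27, controls within 0.07 of 0, and ND3 replicate 2 is lowest among the libraries named, at -0.10.

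In another count with no model, members whose every treated library exceeded both controls of its batch numbered 19 of 40 after ND1 silencing, where 6.46% of all genes tested did so. The count was 14 after COX2 silencing (11.3% of all genes, with 3 libraries), 12 after ND2 (6.28%, also 3 libraries), 11 after ATP8 (5.05%), and 10 each after ATP6 (4.99%) and CYTB (7.09%). It was 7 after ND4L (6.14%), 5 after COX1 (3.91%), 4 after COX3 (5.57%), 2 after ND5 (4.41%) and 0 after ND3 (2.39%). Below both controls throughout lay SDHC and UQCRFS1 after CYTB silencing (6.86% of all genes), SDHD and UQCRFS1 after ND5 (4.94%) and SDHD after COX1 (3.26%). In these treatments the counts are near the shares of all genes. In the other treatments 0 members did so, where 2.32 (ND3) to 9.89% (COX2) of all genes did. Shares of all genes above or below all 4 controls of both batches, a stricter rule, were not counted.

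Summed over a complex, the CPM of every ND1-silenced library exceeded that of both controls of its batch in each of the 4 complexes. Complex IV genes summed to 1548 and 1785 CPM in the ND1 libraries of batch 1 against 1521 and 1453 in its controls, and to 1759 and 1457 in batch 2 against 1431 and 1298. Pooled over batches, complex II genes summed to 571 ± 25.1 CPM in controls and 603 ± 17.4 after ND1 silencing (SD, n = 4 each). Complex III genes summed to 1390 ± 76.5 and 1544 ± 107 CPM, complex IV genes to 1426 ± 93.1 and 1637 ± 160, and complex V genes to 3433 ± 198 and 3764 ± 206. Among the 4 complexes the gap was largest, relative to the control SD, in complex IV. By gene, the ND1 medians were 0.05 in complex II (1 of 4 members at an unadjusted p under 0.05), 0.15 in complex III (6 of 9), 0.18 in complex IV (8 of 11) and 0.19 in complex V (11 of 15). The members at this p were all above control, where 6.47% of all genes tested were.

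A contrast of the mean of the 11 treatments with control asked whether members stood apart from control in common. It rests on the same 4 control libraries. With edgeR 0 of 40 members passed, against 0.261% of all genes, 10 members had an unadjusted p under 0.05, all of them above control (25.0%, against 6.55% of all genes and 9.6% of protein-coding genes with at least 10 CPM). DESeq2 with the batch called COX4I1 alone (adjusted p = 0.0297; 1.09% of all genes) and without the batch 0. The median over members was 0.073 and that of all genes -0.0013, and 35 of 40 members were above 0, as were 49.4% of all genes.

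**Figure D4:**
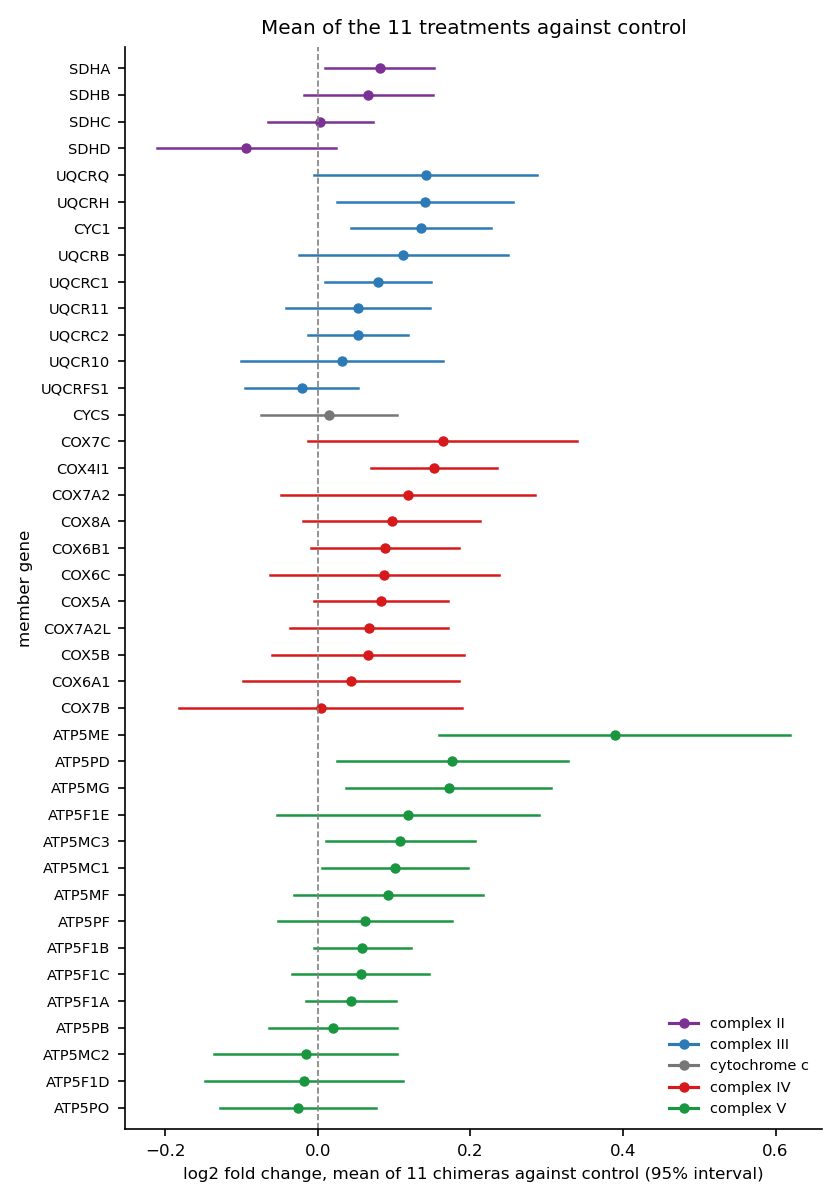
Log2 fold change of each member in the mean of the 11 treatments against control, with its 95% interval, coloured by complex. ATP5ME lies highest (0.39, interval 0.16 to 0.62), the intervals of COX4I1 (0.07 to 0.23) and CYC1 (0.04 to 0.23) lie above 0 before any adjustment, and SDHD is lowest at -0.09; none passed after adjustment over all genes.

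Among the succinate dehydrogenase genes, the values of complex II members pointed both ways in the mean contrast. SDHA was at 0.08 ± 0.036 (SE; adjusted p = 0.334, edgeR) and SDHD, the smaller membrane anchor, at -0.09 ± 0.059 (adjusted p = 0.544, edgeR). SDHD counted 56.2, 51.8, 50.0 and 50.1 CPM in controls and 45.7, 55.4, 36.5 and 39.9 CPM after ND4L silencing. Replicates 1, 3 and 4 of ND4L lay below all controls and replicate 2 among them, and the fitted difference of -0.24 had an adjusted p of 0.164 (edgeR). After ND5 silencing SDHD was at 48.2, 44.1, 44.9 and 44.2 CPM, each below the lowest control (-0.20, adjusted p = 0.402, edgeR). After ND1 silencing its values of 49.9, 58.3, 52.5 and 52.6 CPM overlapped the controls. TIMM8B, an inner membrane import chaperone gene, overlaps SDHD on the other strand and held 158% of the counts of SDHD; whether reads were assigned by strand is not given in the sources used here. Fitted values of TIMM8B ran from 0.02 to 0.33 over the treatments, the lowest adjusted p being 0.122 (edgeR).

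The complex III genes hold cytochrome c1, the Rieske protein, the core proteins and small supernumerary subunits. CYC1, the catalytic haem subunit, counted 119, 120, 117 and 111 CPM in controls and 147, 135, 129 and 129 CPM after CYTB silencing, with no overlap between the groups. By the weaker rule of both controls of the same batch, 7.09% of all genes lay above in every CYTB library. The fitted difference of CYC1, 0.21, had an adjusted p of 0.0807 by edgeR and 0.0366 by DESeq2 with the batch. In the mean contrast CYC1 was at 0.14 ± 0.046 (adjusted p = 0.175, edgeR), and in ND2 silencing it was the member with the lowest p (0.17, adjusted p = 0.998, edgeR; 127, 138 and 131 CPM, all above the controls). UQCRQ, a supernumerary subunit, had the highest value of complex III in the mean contrast (0.14 ± 0.073, adjusted p = 0.437, edgeR). Its CYTB libraries stood at 189, 133, 130 and 138 CPM against 134, 129, 121 and 119 in controls, so that the first library carries most of that difference. The Rieske gene UQCRFS1 was lowest (-0.02 ± 0.037, adjusted p = 0.869, edgeR). UQCRC1, a core protein, had the lowest p of any member after COX2 silencing (0.14, adjusted p = 0.170, edgeR), with 221, 199 and 194 CPM against 198, 194, 184 and 175 in controls. The COX2 values overlapped the controls when batches were pooled, and each exceeded both controls of its own batch. CYCS was at 0.01 ± 0.045 in the mean contrast (adjusted p = 0.935, edgeR).

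In complex IV all 11 genes had mean contrast values above 0, from COX7B (0.00 ± 0.093, adjusted p = 0.995, edgeR) to COX7C (0.16 ± 0.088, adjusted p = 0.459, edgeR). COX4I1, an early partner of COX1 in assembly, had the lowest p of all members in that contrast (0.15 ± 0.041, adjusted p = 0.0820, edgeR). Its control libraries held 247, 257, 230 and 202 CPM, a wide span in which both batch 2 libraries were the lower. ND4L libraries held 269, 276, 273 and 259 CPM, all above the highest control (0.21, adjusted p = 0.0783 by edgeR and 0.0298 by DESeq2 with the batch). After ND1 silencing the values were 266, 276, 283 and 255 CPM, of which the last lay below control 2 but above both controls of its batch (0.21, adjusted p = 0.0884 by edgeR and 0.0312 by DESeq2 with the batch). COX4I1 also had the lowest p of the members after ATP8 (0.20, adjusted p = 0.137; 272, 289, 256 and 257 CPM), ATP6 (0.19, adjusted p = 0.239; 266, 313, 244 and 246 CPM) and ND3 silencing (0.10, adjusted p = 1.00; all by edgeR). The ATP6 value was 0.12 without ATP6 replicate 2 and the ND3 value 0.047 without control 4. COX6B1 had the lowest p of the members after ND1 silencing, with 264, 322, 291 and 241 CPM against 257, 247, 231 and 207 in controls (0.25, adjusted p = 0.0884 by edgeR and 0.0338 by DESeq2 with the batch). The fourth ND1 library lay within the range of the controls as a whole and above both of its own batch.

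COX7A2 and its relative COX7A2L were at 0.12 ± 0.083 and 0.07 ± 0.052 (SE) in the mean contrast, 0.26 and 0.16 after ND1 silencing, and 0.21 and 0.16 after ATP8. Neither was called, and the difference between the pair was not tested. COX7C showed its highest value after CYTB silencing, where replicate 1 held 382 CPM and the other 3 libraries 248, 253 and 255, against 245, 214, 240 and 214 in controls. All 4 lay above every control, the first by far the most.

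Among the ATP synthase genes ATP5ME, which encodes subunit e of the membrane part and takes part in joining ATP synthase dimers, had the highest fitted values of any member. Its controls held 13.9, 14.3, 14.4 and 12.2 CPM, the lowest CPM of the 40 members. After ND1 silencing the libraries held 16.6, 18.6, 21.2 and 16.4 CPM, after ND5 17.3, 21.2, 22.9 and 19.0, and after CYTB 26.0, 17.0, 16.9 and 19.7, in each case above all controls. ND4L (15.3, 17.0, 22.6 and 22.9 CPM), COX1 (15.6, 16.2, 17.1 and 21.7), COX2 (20.5, 16.9 and 18.5), ATP6 (16.4, 16.7, 15.8 and 18.6), ATP8 (15.05, 20.4, 15.5 and 19.4) and ND2 (14.8, 15.7 and 17.1) likewise did not overlap the controls. COX3 (19.5, 16.7, 13.3 and 24.3 CPM) and ND3 (11.9, 11.6, 19.0 and 20.9 CPM) did overlap them. How many of all genes lay above all 4 controls was not counted. By the weaker rule of both controls of the same batch, 2.39 (ND3) to 11.3% (COX2) of all genes did. These 11 sets of libraries share the controls, which are few. Counts of ATP5ME were low, the lowest in any library, treated or control, being 242. The fitted values by edgeR were 0.55 after CYTB (adjusted p = 0.0655), 0.55 after ND5 (0.125), 0.50 after ND4L (0.110), 0.46 after COX3 (0.185) and 0.39 ± 0.115 in the mean contrast (adjusted p = 0.115). DESeq2 with the batch gave an adjusted p of 0.0485 after CYTB. Without CYTB replicate 1 the CYTB value was 0.35, and without COX3 replicate 4 the COX3 value was 0.30.

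ATP5ME is overlapped on the other strand by MYL5, a myosin light chain gene, which held 64.7% of its counts. MYL5 itself had fitted values between -0.01 and 0.22, with a lowest adjusted p of 0.433 (edgeR). In all, 24 members overlap another annotated gene, 18 of them a gene on the other strand, and the share of counts in the overlapping gene reached 94.5% for ATP5PF (GABPA), 85.9% for ATP5PD (KCTD2) and 62.5% for ATP5MF (CPSF4). For COX4I1 it was 12.6% (EMC8, fitted values between -0.07 and 0.11). Annotated pseudogenes named after members were counted separately and held most for SDHA (11.2% of the counts of the gene) and COX6A1 (6.30%), so reads of these 2 could have been divided.

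**Figure D5:**
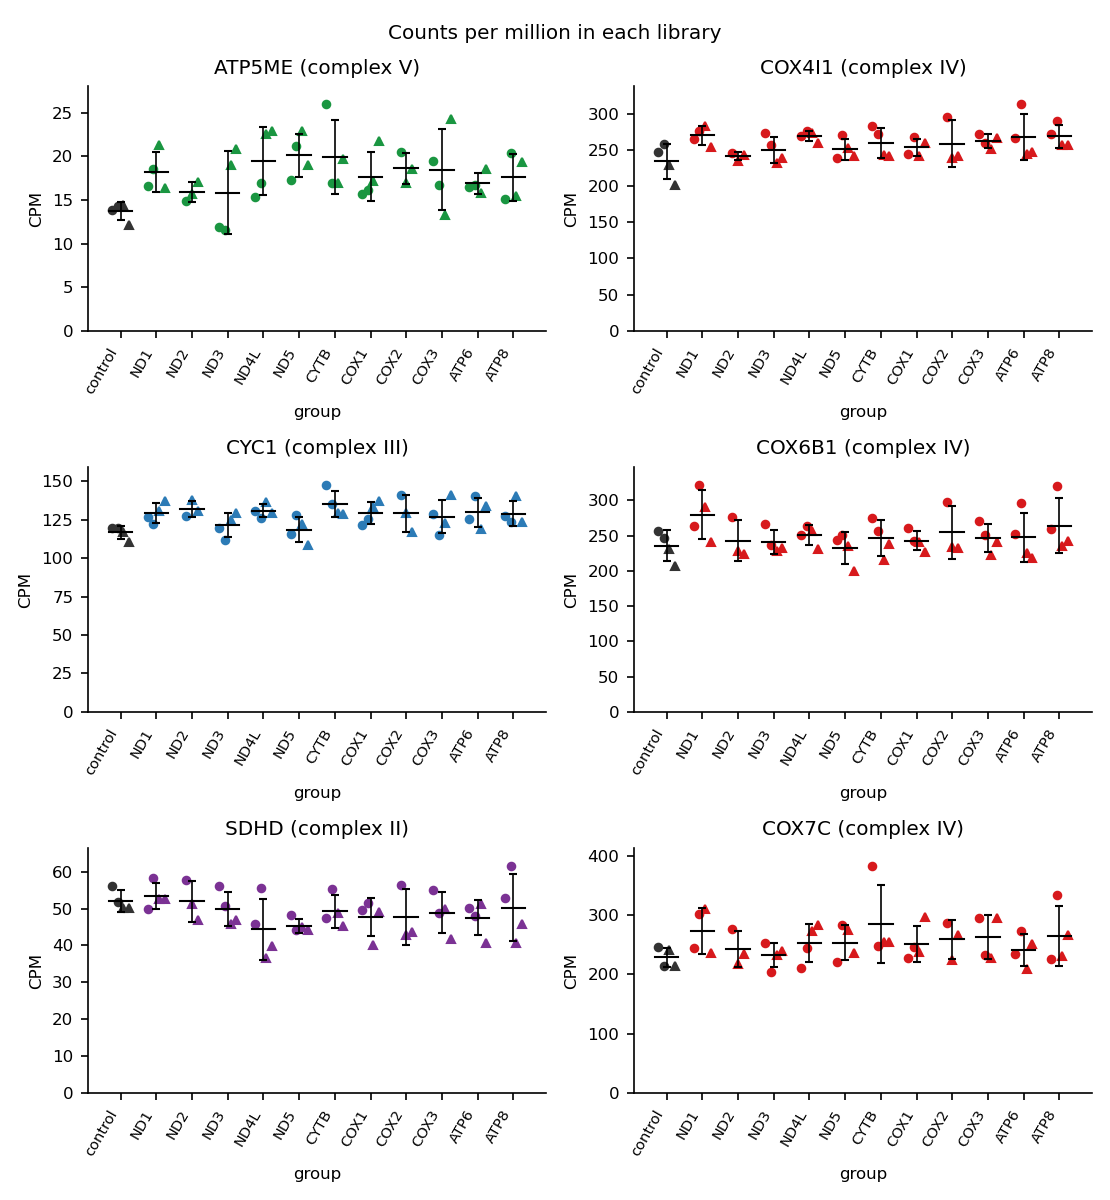
CPM of ATP5ME, COX4I1, CYC1, COX6B1, SDHD and COX7C in every library (circles batch 1, triangles batch 2; bars, mean and SD). Control ATP5ME lies at 12.2 to 14.4 CPM and nearly all treated libraries above, COX7C in CYTB replicate 1 stands apart at 382 CPM, and SDHD in ND4L replicates 3 and 4 is lowest at 36.5 and 39.9 CPM.

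The other complex V genes gave smaller values. ATP5PD of the peripheral stalk had the lowest p of the members after COX1 silencing (0.26, adjusted p = 0.543, edgeR), with 61.8, 76.8, 79.1 and 80.7 CPM against 58.5, 60.2, 65.5 and 64.4 in controls. The first COX1 library lay within the controls and the other 3 above. ATP5PO, the OSCP subunit that links the stalk to F1, was lowest in the mean contrast at -0.03 ± 0.051 (adjusted p = 0.887, edgeR). The c-ring genes were not alike in value: ATP5MC1 and ATP5MC3 were at 0.10 ± 0.048 and 0.11 ± 0.049 in the mean contrast and at 0.20 and 0.21 after ND1 silencing, and ATP5MC2 at -0.02 ± 0.060 and 0.10. None of these passed the test, and the difference between the c-ring genes was not tested.

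The next comparisons asked whether treatments differed from each other, without the controls. Against the mean of the other 10 treatments, ND1 silencing gave a median of 0.10 over the members, with 38 of 40 above 0 (49.4% of all genes) and 16 above the others at an unadjusted p under 0.05, where 5.46% of all genes were. edgeR called 0 members (0.0543% of all genes) and DESeq2 0. The lowest adjusted p was 0.146, for COX6B1 at 0.17 (edgeR). ND5 silencing stood on the other side, with a median of -0.05, 6 of 40 above 0 (50% of all genes) and 8 members below the others at an unadjusted p under 0.05 (6.21% of all genes; 0 members and 0.774% of all genes called by edgeR, 0 members by DESeq2). Its member with the lowest p was CYC1 (adjusted p = 0.209, edgeR), which counted 116, 128, 122 and 108 CPM. ND3 silencing gave a median of -0.06 with 2 of 40 above 0 (51.3% of all genes) and 3 below the others at an unadjusted p under 0.05 (2.93%; 0 members and 0.00987% of all genes called by edgeR, 0 members by DESeq2).

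Treatments were then grouped by the complex of the silenced subunit and set against the other treatments. For the mean of COX1, COX2 and COX3 against the other 8 treatments, the median over the members was 0.00 and that of the 11 complex IV genes 0.01, with 6 of 11 above 0 (52.2% of all genes). None of the 40 was called by edgeR (0.0543% of all genes were) or DESeq2, and 0 reached an unadjusted p under 0.05 (4.98% of all genes did). For ATP6 and ATP8 against the other 9, the 15 complex V genes had a median of 0.015 with 12 above 0 (53.1% of all genes). Neither edgeR (0.0197% of all genes) nor DESeq2 called any of the 40, and COX8A, a supernumerary subunit of complex IV, was the only member at an unadjusted p under 0.05 (4.91% of all genes; adjusted p = 0.986, edgeR). For CYTB against the other 10, the 9 complex III genes had a median of 0.03 with 8 above 0 (50.2% of all genes). The exception was UQCRFS1, the only one of the 40 at an unadjusted p under 0.05 (7.26% of all genes; adjusted p = 0.687, edgeR), and 0 were called by either tool (0.0592% of all genes by edgeR). For the 5 complex I targets against the other 6 treatments the median over members was -0.02 (0 called by either tool, 0.104% of all genes by edgeR, 2 at an unadjusted p under 0.05 against 7.52% of all genes, lowest adjusted p 0.334 for UQCRC1).

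The effect of each treatment was also fitted within each batch. The difference between batches was called for 0 of 40 members in all 11 treatments, as for 0% of all genes. After ND1 silencing the median over the members was 0.14 in batch 1 and 0.17 in batch 2, and after ATP8 0.14 and 0.11. After ND4L it was 0.00 and 0.13, after COX1 -0.02 and 0.14, after ND3 -0.02 and 0.07, and after COX2 0.20 in batch 1, a single library, and 0.045 in batch 2. Within batch 2 alone edgeR called 2 members after ND4L silencing, COX4I1 (0.30, adjusted p = 0.0272) and ATP5ME (0.78, adjusted p = 0.0277), where 1.3% of all genes were called. ATP5ME after ND3 silencing was at -0.26 in batch 1 and 0.59 in batch 2, a difference of 0.85 with an adjusted p of 0.414 (edgeR). COX4I1 after ND1 silencing was at 0.10 and 0.32.

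Length and level were read beside these values. Across the 40 members, which share libraries and are not independent replicates, log2 fold changes ranked against mRNA length with a Spearman coefficient of -0.34 in the mean contrast, -0.39 after ND1 silencing and -0.43 after ND4L, where shorter mRNAs had the higher values. The coefficient was -0.10 after ND5 silencing and 0.02 after ND2, the values nearest 0 of the 11 treatments. With the trend of counts on gene length removed in each library, the ND1 median of the members was 0.13, and with that on GC content 0.155. The part of RNA quality or fragment length in the shift was not tested.

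Other genes of the pathway were read from lists. The 37 nuclear subunit genes of complex I had medians of 0.16 after ND1 silencing (17 at an unadjusted p under 0.05; 11.7% of all genes), 0.14 after ATP8 (14; 10.2%), 0.12 after ND4L (16; 14.1%), 0.10 after CYTB (14; 13.7%) and 0.03 after ND3. The medians of the 40 members in the same comparisons were 0.16, 0.12, 0.051, 0.083 and 0.016. Of these, NDUFS6 rose after ND4L silencing (0.53 ± 0.109, adjusted p = 0.0188, edgeR) and NDUFB9 in the mean contrast (0.19 ± 0.046, adjusted p = 0.0469, edgeR). The 11 tested regulators, which include the NRF1, GABP and PGC-1 family genes, had medians between -0.08 and 0.01. ESRRA, an orphan nuclear receptor that works with PGC-1 on such genes, was the regulator that passed, rising after CYTB silencing from 36.9 ± 5.59 to 46.5 ± 7.70 CPM (log2 fold change 0.33 ± 0.082, adjusted p = 0.0396, edgeR). Further genes of these complexes, NDUFA4, ATP5MD, ATP5MPL and the inhibitory factor gene ATP5IF1, were all tested and edgeR called 0. After ND1 silencing 3 of them had an unadjusted p under 0.05, as had 11.7% of all genes. Alternative isoforms and intronless copies were mostly low: COX4I2, COX6A2, COX7B2, COX8C and the copy ATP5MGL failed the filter with 15, 4, 0, 95 and 35 counts over all 46 libraries, and COX6B2 and COX7A1 stood at 0.463 and 0.529 CPM in controls. UQCRHL, the intronless copy of UQCRH, was tested and stood higher, at 6.67 ± 1.09 CPM.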

How the data were processed

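Poly(A)-enriched RNA of HEK293T cells was sequenced on a NovaSeq X Plus. The authors deposited whole-number read counts per gene for 46 libraries, not normalized, with a gene length column; the aligner, the counter and its strand setting are not given in the sources used here, and the labels and the study's methods differ on whether reads were single or paired. The submitters' processing notes name GRCh38.p12, R 4.3.0, DESeq2 1.40.2 and limma 3.56.2. Gene positions equal GENCODE 29 for 58665 of 58735 genes.

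From these counts, libraries were scaled by TMM, genes were kept by filterByExpr (minimum count 10; 20272 genes) and all 46 libraries entered a single edgeR quasi-likelihood fit (edgeR 4.0.16, limma 3.58.1, R 4.3.3) with group and batch as terms. Adjusted p is Benjamini-Hochberg over all genes tested in a comparison, and a gene was called at an adjusted p under 0.05. CPM is the count scaled to the effective (TMM-adjusted) library size. DESeq2 1.42.0 with and without the batch, other filters, scalings and subsets were alternatives. The fit was tested on simulated counts with planted changes larger than any fitted for a member. How often it finds changes of the sizes seen here was not examined. The mRNA length for levels was added after the lengths in the table had been seen. The strings searched in promoters came from background knowledge.

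The members and the other gene lists were chosen with earlier results of these data known, so lists are described by counts and medians with no test of the list. Genes were named by a rule: the extremes of each complex in the mean contrast and in level, the member with the lowest p in each treatment, 2 families, and called genes of other lists; SDHD after ND4L, ND5 and ND1, COX7C and UQCRQ after CYTB, and the members called by DESeq2 or within a batch were chosen after their values were seen. The study's methods call the libraries of a group biological replicates. No pair of replicates had counts equal within counting noise (chi-square per degree of freedom 3.47 to 23.4), so none was treated as a repeat deposit of another; this does not bear on their independence.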

Additional observations from a re-analysis of the deposited data

Results flagged for a closer look

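In 7 of 179 groups of 4 libraries tested, the outermost library stood apart from the other 3 by Dixon's test; chance gives about 1 in 20, or 8.95 groups. CYTB replicate 1 was high in 3 of them, all supernumerary subunit genes: UQCRQ at 189 CPM (the others 130 to 138), COX7C at 382 (248 to 255) and COX7B at 169 (100 to 103). ND4L replicate 1 was low in COX7B at 88.9 CPM (111 to 113), and ND4L replicate 2 was high in UQCRFS1 at 304 CPM (269 to 273). COX1 replicate 1 was high in UQCRFS1 at 303 CPM (278 to 282). The summed CPM of the 4 complex II genes was 599 in COX3 replicate 1 against 583.5 to 584.3 in the other 3 libraries.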

How the results depend on the processing

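Of the 440 tests of members in the 11 treatments against control, edgeR called 0, without a filter on low counts 35, with the libraries of the groups compared alone 16, with DESeq2 and the batch 5, in batch 2 alone 2, and with the trend on GC content removed 2; the cause was not tested. Leaving out 1 library gave 0 to 1 calls: COX6B1 after ND1 without ND1 replicate 1, and ATP5ME after CYTB without COX3 replicate 3, COX3 replicate 4 or CYTB replicate 3. In the other 42 leave-outs the count stayed at 0. These calls stand against all-gene shares that also grew: after CYTB silencing 0.857% of 47354 genes without a filter, 2.71% with the groups alone and 1.68% with DESeq2, against 0.548%. Of the 40 members, 9 were called after CYTB silencing without a filter and 2 with DESeq2 and the batch, against 0 in the main edgeR fit. With the groups alone they were ATP5ME, COX4I1, CYC1 and UQCRH.

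For the mean of the treatments, the count was 0, without a filter 5, with DESeq2 and the batch 1, and with the replicate block 1 (COX4I1, adjusted p = 0.0485, edgeR). Each treatment with the replicate block gave 0. Whether the numbers pair the samples was not settled. Libraries of the same number in different groups had residual correlations from -0.113 to 0.0912 (mean -0.0140, 242 pairs). The mean was -0.0461 for different numbers of the same batch (243 pairs) and 0.0302 for different batches (484 pairs). The residuals were taken after group and batch terms, which lowers correlations within a batch, so a mean near 0 cannot decide it. Between treatments the count was 0, without a filter 5, and 0 to 1 on leaving out a library (COX6B1 without ND1 replicate 1, adjusted p = 0.0357, edgeR). Treatments by complex gave 1 and effects by batch 4 without a filter, and 0 otherwise.

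Of the medians over members, COX2 became 0.20 in batch 1 alone and ND2 0.078 in batch 1 alone, with 0.036 to 0.071 on leaving out a library; those of ATP8 (0.061 to 0.15), ATP6 (0.015 to 0.088), COX3 (0.045 to 0.094), CYTB (0.054 to 0.11), COX1 (0.012 to 0.065), COX2 (0.045 to 0.15) and ND4L (0.035 to 0.11) moved by over 1.5 times on leaving out a library; those of COX1, ND3 and ND5 passed below 0 in some settings (lowest -0.02 each), and ND1 kept 0.12 to 0.21. COX7B in the mean contrast (0.00) became -0.088 in batch 2 alone and -0.011 without the length trend, and -0.052 to 0.10 on leaving out a library; UQCRFS1 became 0.00 (0.00096) in batch 1 alone. The ratio of the highest to the lowest level was 60.5 by table length, 70.9 by mRNA length and 87.6 in CPM. Every member had at least 242 counts in every library, and the median SE of a fitted log2 fold change was 0.0754, which limits what a difference of that size could show.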
